A study of Homo sapiens with 10 samples.

Results

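The genes described here are the 6 members of the CCN family and 2 genes that are commonly read as targets of the coactivator YAP. The CCN genes are NOV (CCN3), CYR61 (CCN1), CTGF (CCN2), WISP1 (CCN4), WISP2 (CCN5) and WISP3 (CCN6), and the other pair is ANKRD1 and AMOTL2. They were taken by symbol from the deposited count table, and each of the 8 was found there, out of 58216 gene identifiers. WISP1 and WISP2 were near 0 counts throughout, so 6 of the 8 passed the filter on low counts and entered the tests.

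RNA was sequenced from TREx293 cells, a human embryonic kidney cell line of the HEK293 family that carries a tetracycline repressor. Of the 5 groups, each with 2 libraries, CTRL is the wild type control and the others are lines labelled as knock-ins of MN1, of BEND2, of the MN1-BEND2 fusion and of the MN1-CXXC5 fusion. MN1 is a transcriptional coregulator, BEND2 a protein with DNA-binding BEN domains and CXXC5 a CXXC zinc finger protein. The stated aim of the series was to examine how MN1-BEND2 activates transcription. Per the labels' protocols, the cDNAs carried an HA tag, were placed in a vector made for recombination at a single genomic site, were selected with blasticidin and hygromycin, and were induced with doxycycline. Whether control cells were given doxycycline or an empty vector, whether a line is 1 clone or a pool, and whether replicates were grown as separate cultures is not stated in the labels. The p-values therefore measure only how far these samples spread, and that spread may be technical.

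CCN proteins are secreted matricellular proteins: they sit in the matrix around the cell, bind integrins and proteoglycans, and shape how cells respond to adhesion and growth factors. CYR61 and CTGF are textbook targets of the Hippo pathway. In that pathway the kinases LATS1 and LATS2 keep the coactivators YAP (gene YAP1) and TAZ (gene WWTR1) out of the nucleus, and YAP and TAZ that reach the nucleus bind DNA through TEAD factors. ANKRD1, a nuclear ankyrin-repeat protein of striated muscle and stressed cells, and AMOTL2, an angiomotin that binds YAP and feeds back on it, are used as readouts of the same pathway. NOV is a CCN member first known from a virus-induced kidney tumour of birds, and it is not a standard YAP readout.

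Libraries held 15914424 to 26799613 counts, and levels are given as CPM, counts scaled to the library total, with TMM factors. A change is a log2 fold change from one edgeR quasi-likelihood fit of 18127 genes over the 10 libraries, given with its standard error (SE), and was called at a Benjamini-Hochberg adjusted p under 0.05. The labels were borne out by the introduced genes. MN1 was at 326 ± 2.44 CPM (SD, n = 2) in the MN1 line, 291 ± 0.138 CPM in MN1-BEND2, 128 ± 0.493 CPM in MN1-CXXC5 and 3.86 ± 0.0697 CPM in control. BEND2 was at 395 ± 6.63 CPM in the BEND2 line, 400 ± 9.54 CPM in MN1-BEND2 and 0.0855 ± 0.121 CPM in control, and CXXC5 at 58.6 ± 4.73 CPM in MN1-CXXC5 against 13.5 ± 0.113 CPM in control. Counts at these genes add the construct to the endogenous transcript. All 8 markers of this kidney line had counts in every library. Replicate 1 of CTRL and replicate 1 of MN1 stood apart from the others, with 98.9 and 90.5 CPM summed over 14 markers of salivary gland and squamous epithelium, against 0.691 to 2.96 CPM in the other 8 libraries. Replicate 1 of MN1-BEND2 and of MN1-CXXC5 also had counts at 10 of the 14 markers, summing to 2.7 and 2.96 CPM. Their replicate 2 had counts at 5 and 3 of them. Values without replicate 1 of CTRL and of MN1, the libraries with salivary transcripts named below, are therefore given beside the results they change. That fit leaves CTRL and MN1 with 1 library each, and why a call ended in it was not tested.

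In MN1-BEND2 cells each of the 6 tested genes changed against control: NOV, CYR61, CTGF and AMOTL2 rose, and ANKRD1 and WISP3 fell. NOV rose by far the most, to over 10 times its control level. In this comparison edgeR called 51.9% of all tested genes, 26.7% higher and 25.2% lower, so a call alone sets none of these genes apart. The median change of the 6 genes was 0.93 on the log2 scale, beside 0.01 over all tested genes. In bulk RNA a change in every cell and a change in a fraction of the cells cannot be told apart.

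**Figure D1:**
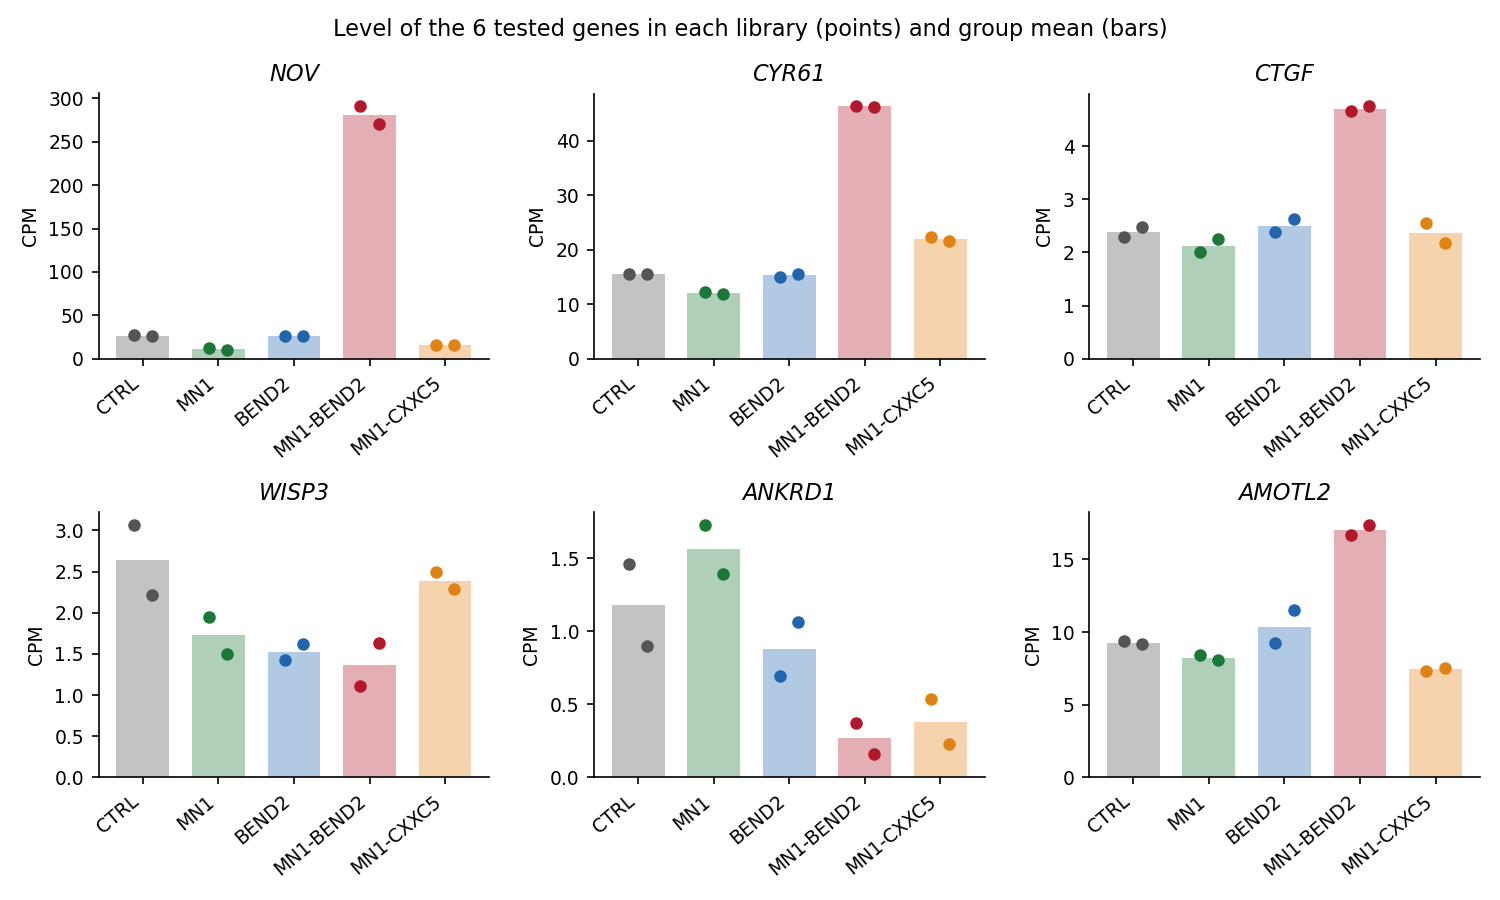
Level of the 6 tested genes in CPM (vertical axes, each with its own scale) in the 5 groups; points are the 2 libraries of a group and bars their mean. NOV, CYR61, CTGF and AMOTL2 are highest in both MN1-BEND2 libraries, where ANKRD1 is at 0.37 and 0.163 CPM.

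NOV (ENSG00000136999, GRCh38 chr8:119416306-119424353, plus strand) was at 27.3 and 26.2 CPM in control. It was at 12 and 10.5 CPM in MN1, 26.3 and 26.8 CPM in BEND2, 291 and 271 CPM in MN1-BEND2, and 16 and 15.7 CPM in MN1-CXXC5. The MN1-BEND2 libraries lay above all others, the control and BEND2 libraries overlapped, and both MN1-CXXC5 libraries lay between MN1 and control.

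The rise of NOV in MN1-BEND2 was 3.39 on the log2 scale (SE 0.05, edgeR adjusted p = 9.83e-13), a 10.5-fold difference that ranked 59 from the top of the 18127 tested genes. Against the lines with 1 partner alone, NOV in MN1-BEND2 was higher by 4.64 (SE 0.059, edgeR adjusted p = 4.15e-13) than in MN1 and by 3.41 (SE 0.05, edgeR adjusted p = 1.32e-12) than in BEND2. In the MN1 line NOV fell by 1.25 against control (SE 0.075, edgeR adjusted p = 2e-07), and in MN1-CXXC5 it fell by 0.75 (SE 0.071, edgeR adjusted p = 5.89e-06). In the fusion lines NOV thus lay on opposite sides of the same control, and these lines differed from each other by 4.15 (SE 0.056, edgeR adjusted p = 1.5e-12). MN1-CXXC5 also lay above MN1, by 0.50 (SE 0.086, edgeR adjusted p = 0.000438). In BEND2 cells the NOV change was -0.01 (SE 0.062, edgeR adjusted p = 0.938). The transcript AC021733.1 lies on the other strand over 4444 bases of the NOV locus. It had 33 counts over the 10 libraries, against 15416 for NOV, with a mean of 0.614 CPM in MN1-BEND2.

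CYR61 (ENSG00000142871, chr1:85580761-85583962, plus strand), an immediate-early gene whose product binds integrins, had a like order of groups apart from MN1-CXXC5. Its control libraries were at 15.6 and 15.5 CPM, MN1 at 12.3 and 11.8 CPM, and BEND2 at 15 and 15.6 CPM. MN1-BEND2 was at 46.3 and 46.2 CPM and MN1-CXXC5 at 22.3 and 21.5 CPM. Both fusion lines lay above every other library, both MN1 libraries lay below all, and BEND2 overlapped control.

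Against control CYR61 rose by 1.57 in MN1-BEND2 (SE 0.054, edgeR adjusted p = 6.49e-10), a 2.97-fold difference, and by 0.49 in MN1-CXXC5 (SE 0.06, edgeR adjusted p = 3.93e-05). It fell by 0.37 in MN1 (SE 0.065, edgeR adjusted p = 0.000668). The MN1-CXXC5 level was above that of MN1 by 0.86 (SE 0.064, edgeR adjusted p = 4.68e-07) and below that of MN1-BEND2, which was higher by 1.08 (SE 0.053, edgeR adjusted p = 1.12e-08). CYR61 was thus the one tested gene of the family that was higher than control in both fusion lines.

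CTGF (ENSG00000118523, chr6:131948176-131951373, minus strand), the profibrotic member of the family and the most used YAP readout, was expressed at a low level. It had 36 to 117 counts a library. Control was at 2.29 and 2.48 CPM, MN1 at 2.01 and 2.25 CPM, BEND2 at 2.38 and 2.62 CPM, MN1-BEND2 at 4.65 and 4.75 CPM, and MN1-CXXC5 at 2.55 and 2.18 CPM. The MN1-BEND2 libraries lay above the other 8, whose values ran from 2.01 to 2.62 CPM. The rise in MN1-BEND2 was 0.97 (SE 0.15, edgeR adjusted p = 0.000191), a 1.97-fold difference. No change of CTGF was called in MN1 (-0.17, SE 0.17, edgeR adjusted p = 0.561), BEND2 (0.06, SE 0.16, edgeR adjusted p = 0.923) or MN1-CXXC5 (-0.02, SE 0.17, edgeR adjusted p = 0.945).

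The CTGF promoter is shown because it is the classic example of TEAD sites close to a start. The window below holds the 250 bases upstream of the RefSeq start (GRCh38.p14, chr6:131951373-131951622, minus strand), and capitals mark matches to the TEAD motif GGAATG, searched on both strands (also as CATTCC).
CTGF: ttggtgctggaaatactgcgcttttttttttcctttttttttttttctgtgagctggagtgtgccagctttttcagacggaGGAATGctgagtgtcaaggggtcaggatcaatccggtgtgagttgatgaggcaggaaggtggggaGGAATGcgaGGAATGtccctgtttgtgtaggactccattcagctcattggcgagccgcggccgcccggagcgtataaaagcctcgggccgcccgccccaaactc

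The 3 matches begin 169, 104 and 95 bases before the start. Of 35116 RefSeq promoter windows of the same length, 11.9% held at least 1 match. The windows of ANKRD1, AMOTL2 and WISP3 held matches too, shown here as 30 bases around each one, read 5′ to 3′ on the gene's strand, with the match in capitals.
ANKRD1, 220 bases before the start (chr10:90921290-90921319, minus strand): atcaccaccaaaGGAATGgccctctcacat
ANKRD1, 128 bases before the start (chr10:90921198-90921227, minus strand): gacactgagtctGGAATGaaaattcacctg
AMOTL2, 69 bases before its inner start (chr3:134374499-134374528, minus strand): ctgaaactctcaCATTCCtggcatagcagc
WISP3, 128 bases before the start (chr6:112053964-112053993, plus strand): agggcaaggaagGGAATGacgtgggacccc

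AMOTL2 has 2 RefSeq starts, and the window of the outer one held no match to GGAATG or CATTCC. ANKRD1 also held 1 match to the AP-1 motif TGANTCA, which reads the same on both strands and overlapped no TEAD match, as 6.57% of promoter windows did. No match to the SRF CArG box was found in the 5 windows, and 1.16% of promoter windows held one. RefSeq windows were used for 4 of the 8 genes; none was used for NOV, CYR61, WISP1 and WISP2. A match is a run of letters, not a measured binding site. The windows were placed at RefSeq starts, and parts of them lay in exons annotated by GENCODE. Of 250 bases, 189 lay in such exons in the ANKRD1 window, 32 in that of WISP3 and 1 in that of CTGF. The inner and outer AMOTL2 windows held 147 and 62. The AMOTL2 match and the ANKRD1 match nearer the start lay within the gene bounds given below, not upstream of them. Among genes with a TEAD match, CTGF and AMOTL2 were higher in MN1-BEND2 than in control, and ANKRD1 and WISP3 were lower.

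WISP3 (ENSG00000112761, chr6:112054072-112070969, plus strand), a family member linked to a childhood joint disease, had 21 to 59 counts a library. It was at 3.07 and 2.22 CPM in control, 1.95 and 1.5 CPM in MN1, 1.43 and 1.62 CPM in BEND2, 1.11 and 1.63 CPM in MN1-BEND2, and 2.49 and 2.29 CPM in MN1-CXXC5. In CPM the control libraries differed from each other more than those of any other group. The higher control library is replicate 1, which carried the salivary transcripts. As a ratio, the MN1-BEND2 libraries differed more than the control libraries. MN1, BEND2 and MN1-BEND2 overlapped one another below control, and MN1-CXXC5 overlapped control.

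WISP3 fell by 0.92 in MN1-BEND2 (SE 0.24, edgeR adjusted p = 0.00658) and by 0.80 in BEND2 (SE 0.24, edgeR adjusted p = 0.0447). Without both libraries that held salivary transcripts, the values were -0.69 (edgeR adjusted p = 0.063) and -0.56 (edgeR adjusted p = 0.26), so neither call held. The call in MN1-BEND2 also ended without MN1-BEND2 replicate 1 (-0.69, edgeR adjusted p = 0.0591) and without CTRL replicate 1 (-0.68, edgeR adjusted p = 0.068). The call in BEND2 also ended without any 1 of the libraries CTRL replicate 1, MN1 replicates 1 and 2, BEND2 replicates 1 and 2, and MN1-CXXC5 replicates 1 and 2, at -0.88 to -0.56. MN1 did not pass the test (-0.61, edgeR adjusted p = 0.0583), and neither did MN1-CXXC5 (-0.14, edgeR adjusted p = 0.663). TUBE1, encoding epsilon-tubulin, shares 193 bases with WISP3 on the other strand and had 13961 counts in all, against 382 for WISP3. Its change in MN1-BEND2 was -0.49 (edgeR adjusted p = 7e-07), and the part of TUBE1 reads in the WISP3 values was not tested.

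WISP1 (chr8:133191039-133231690, plus strand), a WNT1-induced gene, had 3 counts in the 10 libraries, 1 each in replicate 1 of MN1, BEND2 and MN1-CXXC5. WISP2 (chr20:44714844-44728509, plus strand), the member without the C-terminal cystine-knot module, had 29 counts, 0 to 5 a library. The antisense gene KCNK15-AS1, which had 271 counts, spans all 13666 bases of the WISP2 locus, introns included. The overlap of their exons was not measured. How reads were assigned there is not stated, and the part of KCNK15-AS1 reads in the WISP2 counts was not tested. A floor of 3 counts corresponds to 0.112 to 0.189 CPM in these libraries and covers counting error only. Changes in WISP1 and WISP2 were not detectable at this depth.

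Per length, the family was dominated by different members in different lines. Levels summed over the 6 CCN genes, in CPM per kilobase of exon, were 18.5 and 17.9 in control, 11 and 10.2 in MN1, 17.4 and 18 in BEND2, 130 and 123 in MN1-BEND2, and 17 and 16.3 in MN1-CXXC5. NOV made up 55.2% and 54.8% of that sum in the control libraries and 83.7% and 82.6% in MN1-BEND2. In MN1-CXXC5 the NOV share was 35.3% and 35.9%, and CYR61 led with 53.5% and 53.7%. CYR61 also led in MN1, at 45.4% and 47.2%. The sum for MN1-CXXC5 lay just below that of control, with the members in another order.

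**Figure D2:**
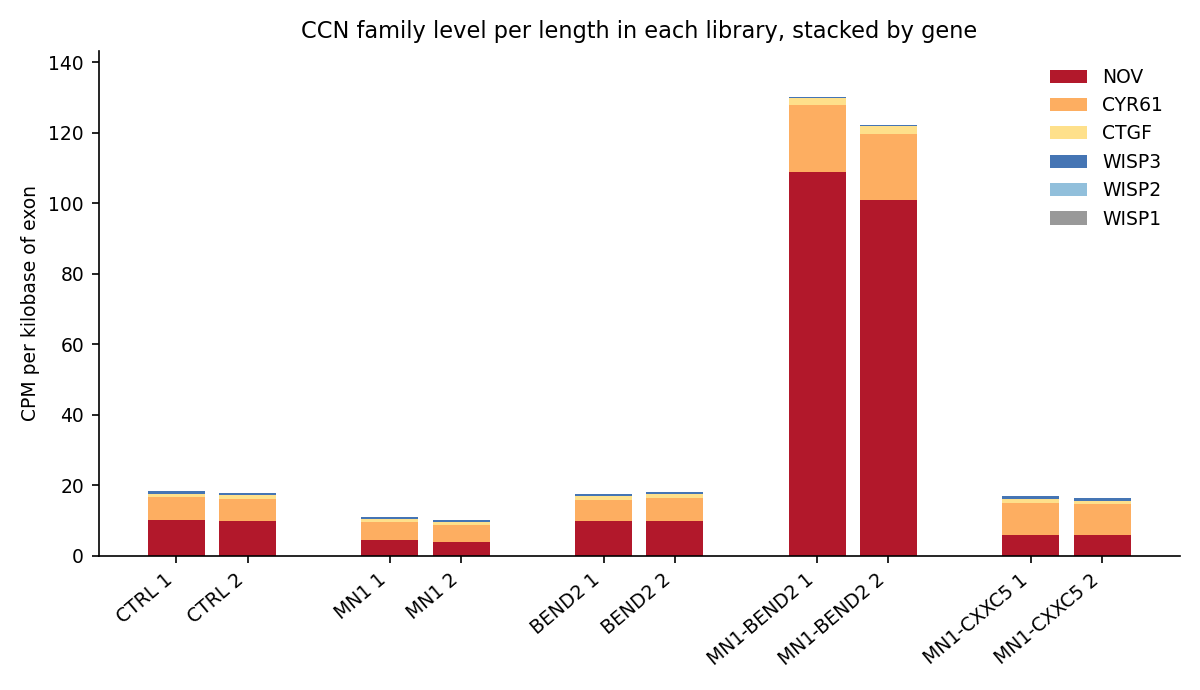
Level of the CCN genes in CPM per kilobase of exon (vertical axis), stacked by gene, in each of the 10 libraries (group name and replicate number). The MN1-BEND2 bars reach 130 and 123, mostly NOV, and the other 8 bars reach 10.2 to 18.5.

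On the same per-length scale, NOV at 105 ± 5.3 CPM per kilobase in MN1-BEND2 (SD, n = 2) lay above 98.3% of tested genes, and at 10.0 ± 0.282 in control above 74.2%. CYR61 rose from 6.33 ± 0.0123 to 18.8 ± 0.0325, from above 63.5% to above 86.4% of tested genes. CTGF moved from 1.02 ± 0.0574 to 2.01 ± 0.0307 and AMOTL2 from 1.55 ± 0.0259 to 2.84 ± 0.0871, both still under the middle of the tested genes (38.3% and 45.1% lay below them). In MN1-BEND2 cells the order was NOV, CYR61, AMOTL2, CTGF, WISP3 and ANKRD1.

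ANKRD1 (ENSG00000148677, chr10:90912096-90921276, minus strand) went the other way from CTGF, CYR61 and AMOTL2 in MN1-BEND2, while in MN1-CXXC5 both it and AMOTL2 were lower than control. Its counts were 28 and 21 in control, 31 and 26 in MN1, 19 and 17 in BEND2, 7 and 4 in MN1-BEND2, and 9 and 4 in MN1-CXXC5. As CPM these were 1.46 and 0.898, 1.73 and 1.39, 0.696 and 1.06, 0.37 and 0.163, and 0.533 and 0.229 in the same order. Both fusion lines lay below the other 6 libraries and overlapped each other.

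ANKRD1 fell by 2.16 in MN1-BEND2 against control (SE 0.48, edgeR adjusted p = 0.00226), which ranked 57 from the lowest of 18127 genes, and by 1.60 in MN1-CXXC5 (SE 0.47, edgeR adjusted p = 0.015). It was also lower in MN1-BEND2 than in MN1, by -2.59 (SE 0.46, edgeR adjusted p = 0.000628), and lower in MN1-CXXC5 than in MN1, by -2.02 (SE 0.45, edgeR adjusted p = 0.00272). The fusions did not differ from each other past the threshold (-0.56, SE 0.62, edgeR adjusted p = 0.46), with few counts behind both. Without both libraries that held salivary transcripts the MN1-BEND2 value was -1.81 (edgeR adjusted p = 0.0266) and the MN1-CXXC5 value -1.21 (edgeR adjusted p = 0.126). The MN1-CXXC5 call also ended without CTRL replicate 1 (-1.23, edgeR adjusted p = 0.102) and without MN1-CXXC5 replicate 2 (-1.11, edgeR adjusted p = 0.127).

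AMOTL2 (ENSG00000114019, chr3:134355874-134375479, minus strand) was at 9.37 and 9.15 CPM in control, 8.42 and 8.08 CPM in MN1, 9.24 and 11.5 CPM in BEND2, 16.7 and 17.4 CPM in MN1-BEND2, and 7.34 and 7.51 CPM in MN1-CXXC5. The MN1-BEND2 libraries were the highest and the MN1-CXXC5 libraries the lowest. AMOTL2 rose by 0.88 in MN1-BEND2 (SE 0.1, edgeR adjusted p = 1.53e-05), a 1.84-fold difference. It fell by 0.32 in MN1-CXXC5 (SE 0.11, edgeR adjusted p = 0.0387), a call that did not hold with offsets for GC content and length (-0.15, edgeR adjusted p = 0.346) or without both libraries that held salivary transcripts (-0.28, edgeR adjusted p = 0.174). It also ended without either library of CTRL, of MN1-BEND2 or of MN1-CXXC5, or without MN1 replicate 1, at -0.34 to -0.29. Between the fusions AMOTL2 differed by 1.20 (SE 0.11, edgeR adjusted p = 1.35e-06).

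By line, the counts of tested genes called against control were as follows. In MN1-BEND2, 4 rose and 2 fell. In MN1-CXXC5, 1 rose and 3 fell, 2 were not called, and the median change was -0.23, where 44.3% of all tested genes were called (19.2% higher, 25.1% lower) and the median over all was -0.03. In MN1, NOV and CYR61 fell and 4 were not called, with a median of -0.27 beside 0.00 over all tested genes, of which 43% were called (21.6% higher, 21.4% lower). In BEND2 only WISP3 was called, lower, where 14.2% of tested genes were called (6.71% higher, 7.46% lower); AMOTL2 read 0.14 (edgeR adjusted p = 0.45) and ANKRD1 -0.46 (edgeR adjusted p = 0.488) there. These comparisons share the control libraries.

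The fusion was then set against its parts. The test asked whether the change in MN1-BEND2 differed from the sum of the changes in the MN1 and BEND2 lines on the log2 scale. It passed for 5 of the 6 tested genes, with 36.9% of all tested genes passing (18.3% above the sum, 18.6% below). NOV exceeded the sum by 4.66 (SE 0.089, edgeR adjusted p = 5.02e-11), CYR61 by 1.97 (SE 0.085, edgeR adjusted p = 1.5e-08), CTGF by 1.09 (SE 0.23, edgeR adjusted p = 0.00285) and AMOTL2 by 0.90 (SE 0.15, edgeR adjusted p = 0.000546). ANKRD1 fell below the sum, at -2.13 (SE 0.62, edgeR adjusted p = 0.0176). That call ended without any 1 of CTRL replicate 2, MN1 replicate 1, BEND2 replicate 2 or MN1-BEND2 replicate 2, at -1.98 to -1.60. WISP3 did not pass (0.49, SE 0.35, edgeR adjusted p = 0.316). For NOV the excess is larger than the change against control because the MN1 line alone had a lower NOV level than control. The levels of MN1 and BEND2 in the MN1-BEND2 line were close to those in the single lines, as given above. MN1 in the MN1-CXXC5 line, at 128 CPM, was lower than in the MN1 line (326 CPM) and in MN1-BEND2 (291 CPM). The part of that level in the comparisons with MN1-CXXC5 was not tested.

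**Figure D3:**
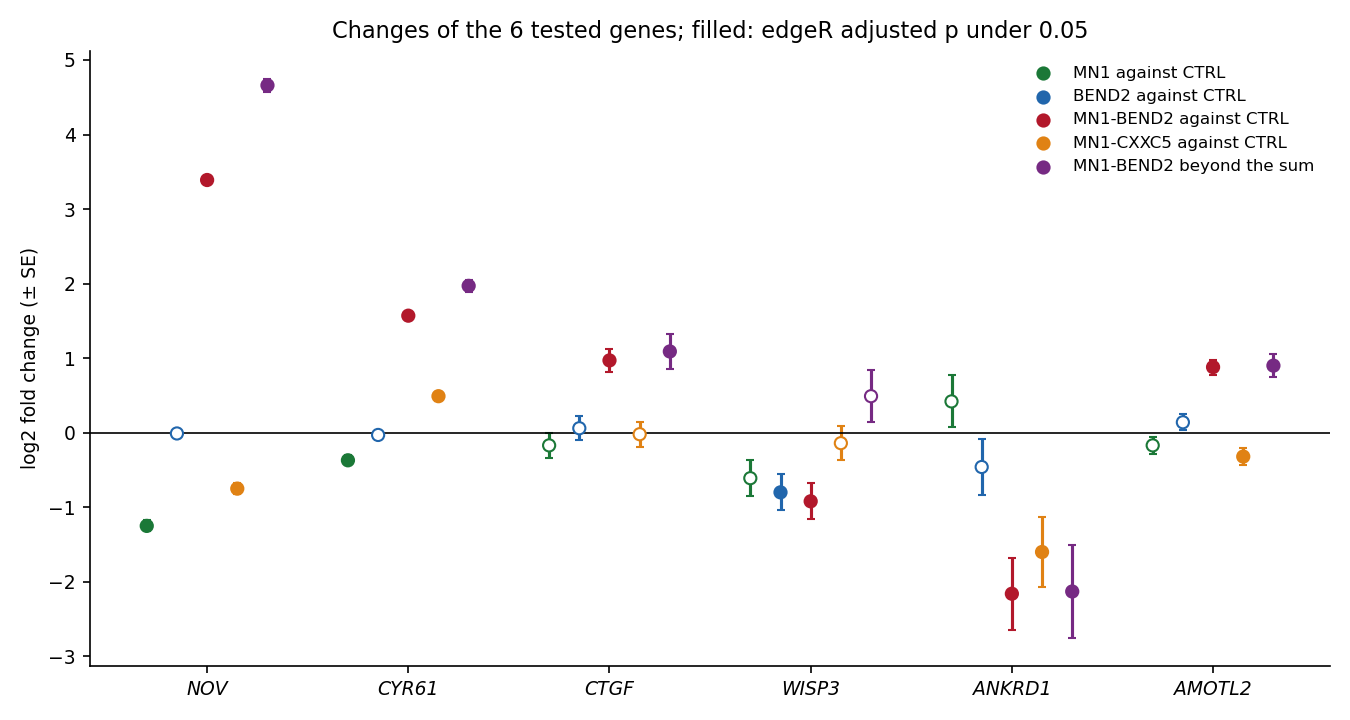
Log2 fold change ± SE (vertical axis) of the 6 tested genes in each line against control, and in purple the MN1-BEND2 change beyond the sum of the MN1 and BEND2 changes; filled points passed an edgeR adjusted p under 0.05. NOV in MN1-BEND2 (3.39) and in MN1-CXXC5 (-0.75) lie on opposite sides of 0, and ANKRD1 is below 0 in both fusion lines.

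Direct comparisons of MN1-BEND2 with the other construct lines gave the same directions for the genes called. Against MN1, 4 of the 6 tested genes were higher and 1 lower, with 46.3% of all tested genes called (23.2% higher, 23.2% lower). Against BEND2 the count was again 4 higher and 1 lower, with 43.6% called (21.7% higher, 21.9% lower), and against MN1-CXXC5 it was 4 higher and 1 lower, with 58.6% called (31.1% higher, 27.5% lower). The gene that was lower was ANKRD1 against MN1 and against BEND2 (-1.71, SE 0.5, edgeR adjusted p = 0.0163), and WISP3 against MN1-CXXC5 (-0.78, SE 0.25, edgeR adjusted p = 0.0176). The ANKRD1 call against BEND2 ended without BEND2 replicate 2 (-1.43) or MN1-BEND2 replicate 2 (-1.18), and the WISP3 call without MN1-BEND2 replicate 1 (-0.55) or MN1-CXXC5 replicate 1 (-0.72). The WISP3 call also ended with GC and length offsets (-0.61, edgeR adjusted p = 0.0613) and under DESeq2 (-0.81, DESeq2 adjusted p = 0.135), and the ANKRD1 call under DESeq2 (-1.75, DESeq2 adjusted p = 0.0711). CTGF was higher by 1.14 than in MN1 (SE 0.16, edgeR adjusted p = 9.06e-05), by 0.92 than in BEND2 (SE 0.15, edgeR adjusted p = 0.00041) and by 0.99 than in MN1-CXXC5 (SE 0.16, edgeR adjusted p = 0.000171). Between MN1-CXXC5 and MN1, NOV and CYR61 were higher and ANKRD1 lower in the fusion, with 48.8% of all tested genes called (23.3% higher, 25.5% lower).

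The upstream genes of the pathway moved in both directions in MN1-BEND2. Of 24 Hippo pathway and TEAD genes, 7 rose, 12 fell and 5 were not called, with a median of -0.11, where 26.7% of all tested genes rose and 25.2% fell. The shares over all tested genes, given above for each line, are the measure for the list counts that follow. YAP1 fell by 0.32 (SE 0.037, edgeR adjusted p = 1.43e-05), from 93.5 to 75.0 CPM, and WWTR1 fell by 0.47 (SE 0.051, edgeR adjusted p = 9.82e-06), from 58.8 to 42.6 CPM. Among the DNA-binding partners TEAD1 fell by 0.37 (edgeR adjusted p = 5.79e-06) and TEAD4 rose by 0.47 (edgeR adjusted p = 4.3e-05), while TEAD2 (-0.04) and TEAD3 (0.06) were not called. Of the inhibitory kinases, LATS1 fell by 0.39 (edgeR adjusted p = 4.05e-06) and LATS2, itself a YAP target, rose by 0.63 (edgeR adjusted p = 0.000278). The angiomotin AMOT, a relative of AMOTL2 that holds YAP in the cytoplasm, fell by 0.99 (SE 0.03, edgeR adjusted p = 3.06e-10), and the KIBRA relative WWC2 rose by 0.62 (edgeR adjusted p = 2.44e-08).

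In MN1-CXXC5, 9 of the 24 Hippo pathway and TEAD genes rose and 4 fell, with a median of 0.06, where 19.2% of all tested genes rose and 25.1% fell. YAP1 (0.09, edgeR adjusted p = 0.0691), WWTR1 (0.02) and TEAD1 (0.07) were not called, LATS2 rose by 0.52 (edgeR adjusted p = 0.002), and AMOT fell by 0.63 (edgeR adjusted p = 3.07e-08). In MN1, 7 rose and 6 fell (21.6% and 21.4% of all tested genes), and in BEND2, 4 rose and 2 fell (6.71% and 7.46% of all). AMOT fell in the MN1 line too, by 0.57 (edgeR adjusted p = 9.79e-08), and rose by 0.16 in BEND2 (edgeR adjusted p = 0.00528). LATS1 fell by 0.33 in MN1 (edgeR adjusted p = 3.11e-05) and by 0.20 in BEND2 (edgeR adjusted p = 0.00586). YAP1 differed between the fusions by -0.41 (SE 0.037, edgeR adjusted p = 1.55e-06), lower in MN1-BEND2.

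A list of 18 other known YAP and TAZ targets was mixed. In MN1-BEND2, 9 rose, 4 fell and 5 were not called, with a median of 0.32, beside 26.7% higher and 25.2% lower over all tested genes. CRIM1, a transmembrane BMP antagonist, rose by 1.19 (SE 0.038, edgeR adjusted p = 3.85e-10), and the ligand gene TGFB2 rose by 1.17 (SE 0.097, edgeR adjusted p = 9.18e-07). RBMS3, an RNA-binding protein gene, fell by 1.26 (SE 0.11, edgeR adjusted p = 1.65e-06), and PTPN14, a phosphatase that binds YAP and is also in the Hippo list, as LATS2 is, fell by 0.46 (edgeR adjusted p = 3.09e-07). Chosen after their values were seen, MYOF rose by 2.11 (SE 0.29, edgeR adjusted p = 6.99e-05) and IGFBP3 by 2.64 (SE 0.53, edgeR adjusted p = 0.00125). IGFBP3 was at 0.104 and 0.214 CPM in the control libraries, near the floor of 3 counts. The mean level of MYOF was 2.01 CPM in control, 8.58 CPM in MN1-BEND2 and also raised in MN1-CXXC5, at 6.43 CPM. In MN1-CXXC5, 7 rose and 4 fell, with a median of 0.13; TGFB2 rose by 1.59 and CRIM1 by 1.06, and the stress gene GADD45A fell by 0.66, with edgeR adjusted p from 3.81e-09 to 7.15e-07. In MN1, 4 rose and 3 fell, GADD45A falling by 1.41 (edgeR adjusted p = 5.59e-09), and in BEND2, 1 fell.

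SRF and its MRTF coactivators, which share cytoskeletal genes with YAP, were set beside these together with their targets. In MN1-BEND2, 9 of 14 tested genes rose and 2 fell, with a median of 0.38, and in MN1-CXXC5, 2 rose and 6 fell, with a median of -0.22. Over all tested genes 26.7% rose and 25.2% fell in the first comparison and 19.2% and 25.1% in the second, and the difference between the fusions over the list was not tested. In MN1-BEND2 the calponin gene CNN2 rose by 1.66 (edgeR adjusted p = 2.71e-10), beta-actin ACTB by 1.27 (edgeR adjusted p = 1.23e-09), the focal adhesion gene ZYX by 0.77 (edgeR adjusted p = 3.1e-08) and MKL1, which encodes MRTF-A, by 0.78 (edgeR adjusted p = 4.35e-07). MKL1 went from 21.2 to 36.4 CPM, and the MRTF gene MKL2 the other way, from 78.7 to 59.8 CPM. In MN1-CXXC5, ZYX fell by 0.95 (edgeR adjusted p = 9.33e-08), the filamin gene FLNA by 0.57 (edgeR adjusted p = 5.63e-08) and SRF by 0.39 (edgeR adjusted p = 1.01e-05), while ACTB rose by 0.44 (edgeR adjusted p = 1.77e-05). SRF was not called in MN1-BEND2 (0.09, edgeR adjusted p = 0.0528). In MN1, 5 rose and 2 fell, and in BEND2, 4 rose and 1 fell. ACTB rose there too, by 0.90 in MN1 (edgeR adjusted p = 8.66e-08) and by 0.43 in BEND2 (edgeR adjusted p = 0.000345). CNN2 rose by 0.42 in MN1 (edgeR adjusted p = 9.47e-05) and by 0.48 in BEND2 (edgeR adjusted p = 0.00042).

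CTGF is also a target of TGF-beta, and 12 such targets were read in the same way. In MN1-BEND2, 4 rose and 4 fell, with a median of -0.26, against 51.9% of all tested genes called. The DNA-binding inhibitor ID1 rose by 1.97 (SE 0.15, edgeR adjusted p = 4.38e-07) and the cell cycle inhibitor CDKN2B by 0.81 (edgeR adjusted p = 4.48e-07), and fibronectin FN1 fell by 0.80 (edgeR adjusted p = 3.62e-08). In MN1-CXXC5, 1 rose and 5 fell, with a median of -0.49 (44.3% of all called), and ID3 fell by 2.31 (SE 0.11, edgeR adjusted p = 2.25e-08). In MN1, 1 rose and 7 fell, with a median of -0.37 (43% of all called), and in BEND2, 3 fell (14.2% of all called).

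Of 13 receptors and co-receptors of CCN proteins, 12 were tested. In MN1-BEND2, 3 rose and 4 fell: the integrin subunit ITGAV rose by 0.52 (edgeR adjusted p = 5.34e-08), and ITGB1 fell by 0.51 (edgeR adjusted p = 3.57e-08), the lipoprotein receptor LRP1 by 0.78 (edgeR adjusted p = 1.88e-07) and the proteoglycan SDC4 by 0.76 (edgeR adjusted p = 5e-07). MN1-CXXC5 and MN1 also had 3 higher and 4 lower each. In the MN1 line SDC4 fell by 0.75 (edgeR adjusted p = 1.86e-06) and LRP1 by 0.47 (edgeR adjusted p = 2.41e-05), and ITGAV rose by 0.16 (edgeR adjusted p = 0.00171). In MN1-CXXC5 SDC4 fell by 0.44 (edgeR adjusted p = 8.52e-05), and ITGB1 rose by 0.15 (edgeR adjusted p = 0.00126). The share called over all tested genes was 51.9% in MN1-BEND2, 44.3% in MN1-CXXC5 and 43% in MN1. In BEND2 the smallest edgeR adjusted p of the 12 was 0.148, for the WNT co-receptor LRP6 (-0.07).

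**Figure D4:**
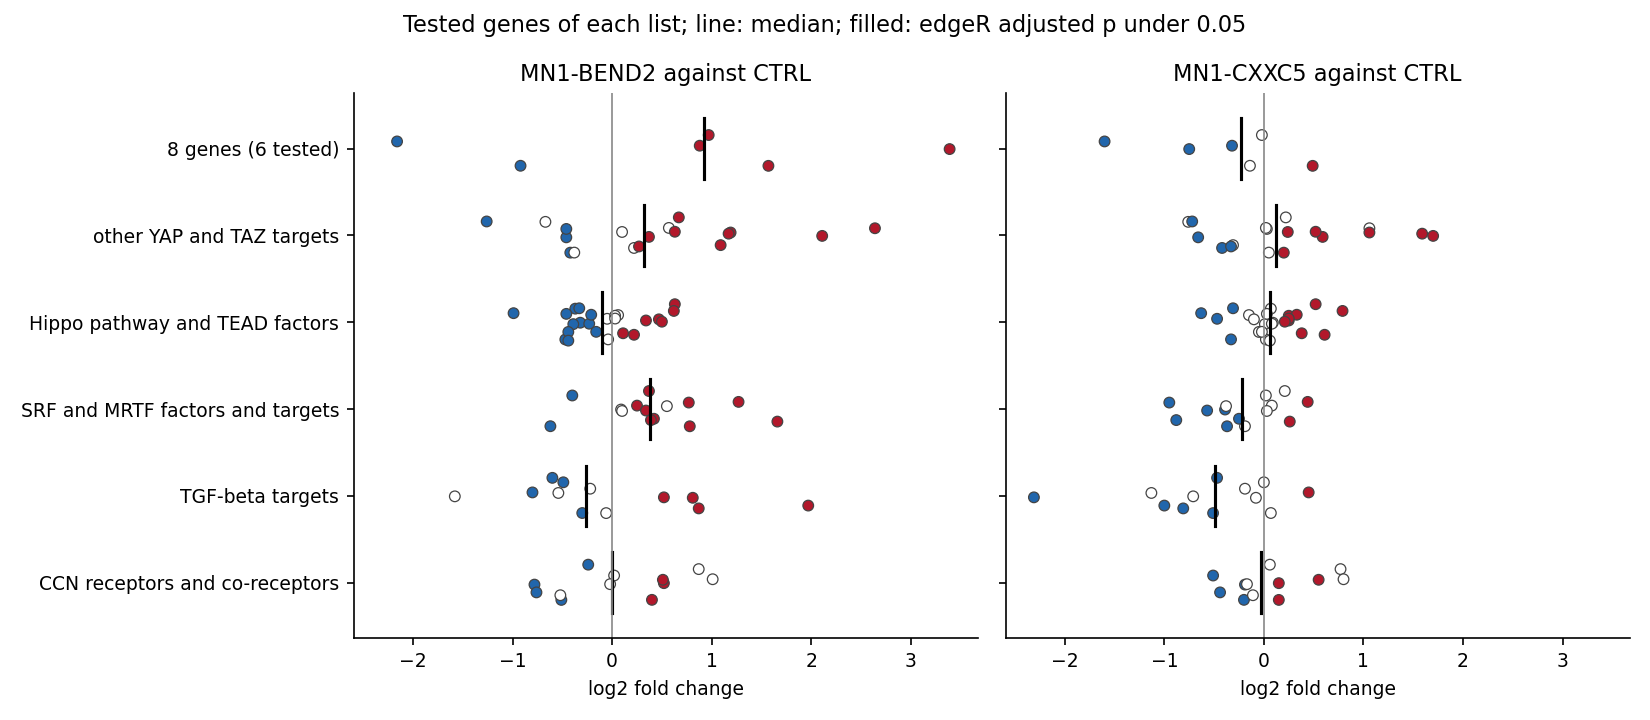
Log2 fold change (horizontal axis) of the 6 tested genes and of the tested genes of 5 lists in MN1-BEND2 (left) and MN1-CXXC5 (right) against control; red and blue points passed an edgeR adjusted p under 0.05 and black lines are medians. The SRF and MRTF median is 0.38 on the left and -0.22 on the right.

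Markers of fibroblasts, a cell type rich in CCN transcripts, summed to a higher level in MN1-BEND2, MN1 and BEND2 than in control. The 8 markers summed to 8.9 and 9.45 CPM in control, 14.7 and 15.7 CPM in MN1, 11.2 and 13.3 CPM in BEND2, 23.3 and 23.5 CPM in MN1-BEND2, and 10 and 9.29 CPM in MN1-CXXC5. Of the 4 that were tested, COL1A1 rose by 0.87 (SE 0.13, edgeR adjusted p = 9.77e-05) and PDGFRA by 2.65 (SE 0.2, edgeR adjusted p = 4.15e-07) in MN1-BEND2, and the other 2 were not called. In MN1, 3 of the 4 rose against control, with a median of 1.43 beside 0.55 in MN1-BEND2. Over all tested genes 21.6% rose in MN1 and 26.7% in MN1-BEND2. Between MN1-BEND2 and MN1, 2 of the 4 were higher and 2 lower, with a median of -0.49. DCN, LUM and THY1 had no counts in MN1-BEND2 replicate 1, all 8 had counts in replicate 2, and THY1 was also at 0 in 1 or both libraries of each other group. The 5 endothelial markers summed to 0.296 to 1.58 CPM over the libraries. The part of either cell type in the values of the CCN and YAP target genes was not tested.

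Genes with the most similar pattern over the 10 libraries were ranked by Pearson's r of log2 CPM among 11294 candidates, a description in which libraries of 1 group share their line. For NOV they included CHD5 (r = 0.995) and PFKFB3 (r = 0.995). For CYR61 they were the axon guidance receptor gene ROBO3 (r = 0.996), the connexin gene GJA3 (r = 0.995) and FKBP5 (r = 0.994). For CTGF they were ADAMTS2 (r = 0.988), FIBCD1 (r = 0.984) and PIK3IP1 (r = 0.983), for AMOTL2 N4BP3 (r = 0.989), COL6A2 (r = 0.986) and CA2 (r = 0.986), and for ANKRD1 KDELR3 (r = 0.964), MAL2 (r = 0.960) and ABLIM1 (r = 0.954). CHD5 was at 8.91 CPM in control and 33.4 CPM in MN1-BEND2, and ROBO3 at 6.38 and 36.4 CPM. WISP3 had the least close matches, led by RINT1 (r = 0.936).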

How the data were processed

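The deposited table holds the authors' raw read counts per gene, without normalization. The submitters' processing notes name featureCounts 2.0.0, HISAT2 and SAMtools 1.0.1, and build GRCh38 (hg38). How reads were counted (strand, overlaps, annotation release) is not given in the sources used here, so antisense reads cannot be told apart. Of 58261 lines, those of 45 repeated identifiers were summed, and 27 symbols turned into dates were restored from GENCODE 29, which gave positions and exon lengths. Libraries were fitted in edgeR 4.0.16 (R 4.3.3; TMM, filterByExpr by group, quasi-likelihood F-test) with group as the only factor and 5 residual degrees of freedom; 18127 genes were tested. The procedure was run on simulated counts in which a small share of genes was changed, in MN1-BEND2 only. The check there was on median fold changes, so it does not bear on false calls in these data. DESeq2 1.42.0, other scalings, filters, offsets, a replicate block and left-out libraries were alternatives. The members and the gene lists were chosen with earlier results of these data known. Genes named from a list were YAP1, WWTR1, the TEAD and LATS genes and SRF, plus up to 4 with the smallest adjusted p per comparison; the 3 closest patterns per gene were named by Pearson's r of log2 CPM, except 1 that is not reported here. MYOF, IGFBP3 and MKL2 fall outside these rules. Replicates differed beyond counting noise (chi-square per degree of freedom 2.13 to 3.51).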

Additional observations from a re-analysis of the deposited data

Results flagged for a closer look

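For 5 genes the change in the MN1-BEND2 line differed from the sum of the changes in the MN1 and BEND2 lines by a test of that difference (edgeR, over 18127 genes, of which 36.9% passed). The differences on the log2 scale were 4.66 for NOV, 1.97 for CYR61, 1.09 for CTGF, 0.90 for AMOTL2 and -2.13 for ANKRD1. Groups of 2 libraries are too small for a test of single outlying libraries.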

How the results depend on the processing

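Over 20 alternatives the calls of NOV, CYR61, CTGF, ANKRD1 and AMOTL2 in MN1-BEND2 against control held, with NOV at 3.34 to 3.44, CYR61 at 1.52 to 1.58, CTGF at 0.90 to 1.04, ANKRD1 at -2.79 to -1.63 and AMOTL2 at 0.66 to 0.91. Of 1079 alternative values of single genes, 42 lost their call by the adjusted p, 3 gained one and 17 changed sign, all 17 among values not called either way. There was no adjusted p for 7 values, all under DESeq2, which are counted in none of the 3; 2 of them were called as reported (WISP3 in BEND2 against control and ANKRD1 against the sum). For genes called in MN1-CXXC5 against control, 4 as reported became 2 under DESeq2, 2 without both libraries with salivary transcripts, and 2 to 4 with 1 library left out. In BEND2 against control 1 became 0 with GC and length offsets in edgeR (1 at an unadjusted p under 0.05), 0 without both salivary libraries in edgeR (none unadjusted), 0 under DESeq2 (none unadjusted), and 0 to 1 with 1 library left out. For the test against the sum, 5 became 3 under DESeq2, where CTGF read 1.08 (DESeq2 adjusted p = 0.102) and ANKRD1 was given no adjusted p. DESeq2 also ended the call of WISP3 in MN1-BEND2 (-0.95, DESeq2 adjusted p = 0.0886), those of ANKRD1 (-1.62, DESeq2 adjusted p = 0.0801) and AMOTL2 (-0.31, DESeq2 adjusted p = 0.248) in MN1-CXXC5, and the 2 calls given above for MN1-BEND2 against BEND2 and against MN1-CXXC5. The causes were not tested.

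Signs changed for CTGF in MN1-CXXC5 against control (0.01 with only the groups compared, 0.10 with GC and length offsets, 0.10 with replicate block and offsets, and -0.14 to 0.09 with 1 library left out). They changed for WISP3 in the same comparison (0.13 without both salivary libraries, and -0.36 to 0.10 with 1 library left out). In BEND2 against control NOV read 0.02 with offsets, 0.02 without both salivary libraries and -0.04 to 0.01 with 1 library left out, where CYR61 read -0.06 to 0.01 and CTGF -0.01 to 0.13. WISP3 in MN1-BEND2 against BEND2 ran from -0.44 to 0.11, and ANKRD1 in MN1-BEND2 against MN1-CXXC5 from -1.19 to 0.15, with 1 library left out. AMOTL2 in MN1-CXXC5 against MN1 read 0.07 with offsets and 0.07 with replicate block and offsets.

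DESeq2 called fewer genes in all: 6250 against 9416 in MN1-BEND2, 4922 against 8033 in MN1-CXXC5, 4811 against 7786 in MN1 and 867 against 2569 in BEND2, each against control. It called 5313 against 8398 for MN1-BEND2 against MN1, 4788 against 7909 for MN1-BEND2 against BEND2, and 3746 against 6687 beyond the sum. In BEND2 against control edgeR called 1641 genes with GC and length offsets, 1239 without both salivary libraries, and 1064 to 2526 with 1 library left out. Same-numbered replicates deviated together with r from 0.066 to 0.29 over 10 pairs of groups, 9 of them over 0.1. The numbers were to be taken as pairs only with every r over 0.1, which MN1 with BEND2 missed, so the reported fit has no block; the labels name no shared batch or culture, and a shared one was not tested. With the replicate block the genes called in BEND2 against control were 4159, and WISP3 in MN1 against control passed (-0.61, edgeR adjusted p = 0.0381); the block changed no other call of the 6 genes. WISP3, ANKRD1 and CTGF rest on few counts, which limits their precision.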

Other observations

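The nearest tested protein-coding genes were read in the same fit, and some of them are given here. Around NOV, the tested neighbours MAL2 and ENPP2, 171 and 133 kb away, read -0.40 (edgeR adjusted p = 1.52e-05) and -0.12 (edgeR adjusted p = 0.106) in MN1-BEND2 against control, beside 3.39 for NOV. ENPP2, which encodes autotaxin, fell by 1.13 in MN1-CXXC5 (edgeR adjusted p = 1.55e-07). DDAH1, 2.4 kb from CYR61, rose by 0.48 in MN1-BEND2 (edgeR adjusted p = 7.25e-07) and by 0.34 in MN1-CXXC5 (edgeR adjusted p = 2.41e-05), and read -0.00 in MN1 (edgeR adjusted p = 0.966). ZNHIT6, 65.5 kb away on the other side of CYR61, fell by 0.39 in MN1-BEND2 (edgeR adjusted p = 0.0137). ENPP1, 53 kb from CTGF, fell by 0.43 in MN1-BEND2 (edgeR adjusted p = 2.95e-06), and RPP30, 3.54 kb from ANKRD1, read -0.02 (edgeR adjusted p = 0.713). ANAPC13 and RYK, 102 and 105 kb from AMOTL2, read -0.03 (edgeR adjusted p = 0.638) and -0.32 (edgeR adjusted p = 0.000488). FAM229B and LAMA4, 16.6 and 37.8 kb from WISP3, read 0.13 (edgeR adjusted p = 0.277) and -0.68 (edgeR adjusted p = 1.45e-08) in MN1-BEND2. On the other side of WISP3, FYN, 181 kb away, read -0.79 (edgeR adjusted p = 2.25e-08) and TRAF3IP2, 448 kb away, 0.03 (edgeR adjusted p = 0.78).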
